A study of Homo sapiens with 9 samples.

Results

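The genes described are 44 parts of the core autophagy machinery and the ATG8 family, measured by RNA-seq in HCT116, an established line of human colon carcinoma cells. They were listed by name for their place in the pathway, by a rule that uses no measured value, although earlier results of these data were known when the list was drawn up. All 44 were matched by Ensembl identifier among the 58395 genes of the deposited tables, and 43 had enough counts to be tested. Every library came from cells that carried a short hairpin RNA against STBD1 (shSTBD1), a glycogen-binding protein proposed to bring glycogen to autophagosomes. On this background 3 stable lines, made by lentiviral infection and drug selection, were compared, with 3 libraries each: plvx neo (the plvx-ires-neo vector alone), STBD1 WT (hairpin-resistant wild-type STBD1) and STBD1 W203C (the same construct with a tryptophan in its LC3-interacting region, or LIR, replaced by cysteine). The design text calls the 3 libraries of a group biological replicates. Whether they came from separate infections was not given in the sources used here, so p-values measure the spread between these libraries.

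In the names of the deposited tables STBD1 WT and STBD1 W203C are exchanged relative to the labels, which were followed here. If the labels were the ones exchanged, each direction given here between STBD1 W203C and STBD1 WT would turn around, and the comparisons of the 2 constructs with plvx neo would change places.

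Autophagy encloses part of the cytoplasm in a membrane that closes into an autophagosome and then fuses with the lysosome. The ULK1 kinase complex starts the process and the class III phosphatidylinositol 3-kinase complex marks the site. ATG9 vesicles, ATG2 lipid transfer proteins and scramblases supply membrane, and a pair of ubiquitin-like conjugation systems attaches ATG8 proteins (the LC3 and GABARAP proteins) to it. Receptors that carry a LIR bind the attached ATG8 proteins and bring their cargo along. Much of the control of this machinery acts on the proteins, and part of it acts on their RNA through factors such as TFEB and the FOXO proteins.

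Libraries held 16.9 to 23.3 M expected counts (M, mega), and their 10 most abundant genes took 5.87% to 6.89% of them. Pairs of replicates had a chi-square per gene of 2.12 to 3.87, where sampling noise alone gives about 1, so no library was a copy of another. STBD1, the gene targeted by the hairpin, had 8.57, 11.5 and 9.59 CPM (counts scaled to a common library size by the TMM method) in plvx neo, 32.7, 33.0 and 32.8 in STBD1 WT libraries and 25.9, 24.4 and 30.8 in STBD1 W203C. The readthrough gene FAM47E-STBD1, which lies over STBD1 on the same strand, had 3.45, 1.75 and 4.03 CPM in plvx neo, 48.4, 50.9 and 52.9 in STBD1 WT libraries and 39.7, 43.4 and 42.8 in STBD1 W203C. Both constructs were therefore read in every library that should carry one, and STBD1 was lower in STBD1 W203C than in STBD1 WT (edgeR quasi-likelihood test, log2 fold change -0.28, SE 0.0772, adjusted p = 0.00945). The part of this difference in construct level in the results was not tested. Of 8 markers of a colon epithelial line, 6 averaged at least 1 TPM (an abundance per length of transcript), EPCAM, CDH1, KRT8, KRT18, KRT19 and CDX2, while CDX1 was listed at 0 in all 9 libraries and VIL1 did not exceed 0.08 TPM. Their summed level was 3798 to 3898 TPM in plvx neo, 3393 to 3528 in STBD1 WT libraries and 3177 to 3437 in STBD1 W203C. Of 6 fibroblast markers only COL1A1 exceeded 1 TPM, DCN and LUM were listed at 0 in all 9 libraries, and the summed level was 13.9 to 16.6 TPM in plvx neo, 16.7 to 21.8 in STBD1 WT and 12.8 to 18.3 in STBD1 W203C. The 5 leukocyte markers summed to at most 1.01 TPM and the 4 endothelial markers to at most 0.47 TPM in any library.

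At the level of TPM, which can be set side by side between genes, GABARAP stood above all other members with a mean of 259 TPM over the 9 libraries. ATG12, the ubiquitin-like protein that is joined to ATG5, followed with 122 TPM, then VMP1, an ER membrane scramblase, with 114 TPM and WDR45B, a phosphoinositide-binding WIPI protein, with 95.05 TPM. The kinases were far lower, ULK1 at 12.2 TPM and ULK2 at 3.91 TPM. ATG2A and ATG2B, which move lipids from the endoplasmic reticulum into the growing membrane, differed in level, with means of 7.94 and 2.02 TPM. The least abundant member was MAP1LC3A at 0.154 TPM. It had 0, 4 and 1 expected counts in plvx neo, 4, 7 and 2 in STBD1 WT libraries and 0, 5 and 0 in STBD1 W203C, and it failed the count filter in all 3 comparisons. A library with 0 counts allows up to 3 counts, or 0.157 CPM in plvx neo replicate 1, 0.161 in STBD1 W203C replicate 1 and 0.167 in STBD1 W203C replicate 3, counting error only, so no direction could be read for this gene at this depth.

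**Figure D1:**
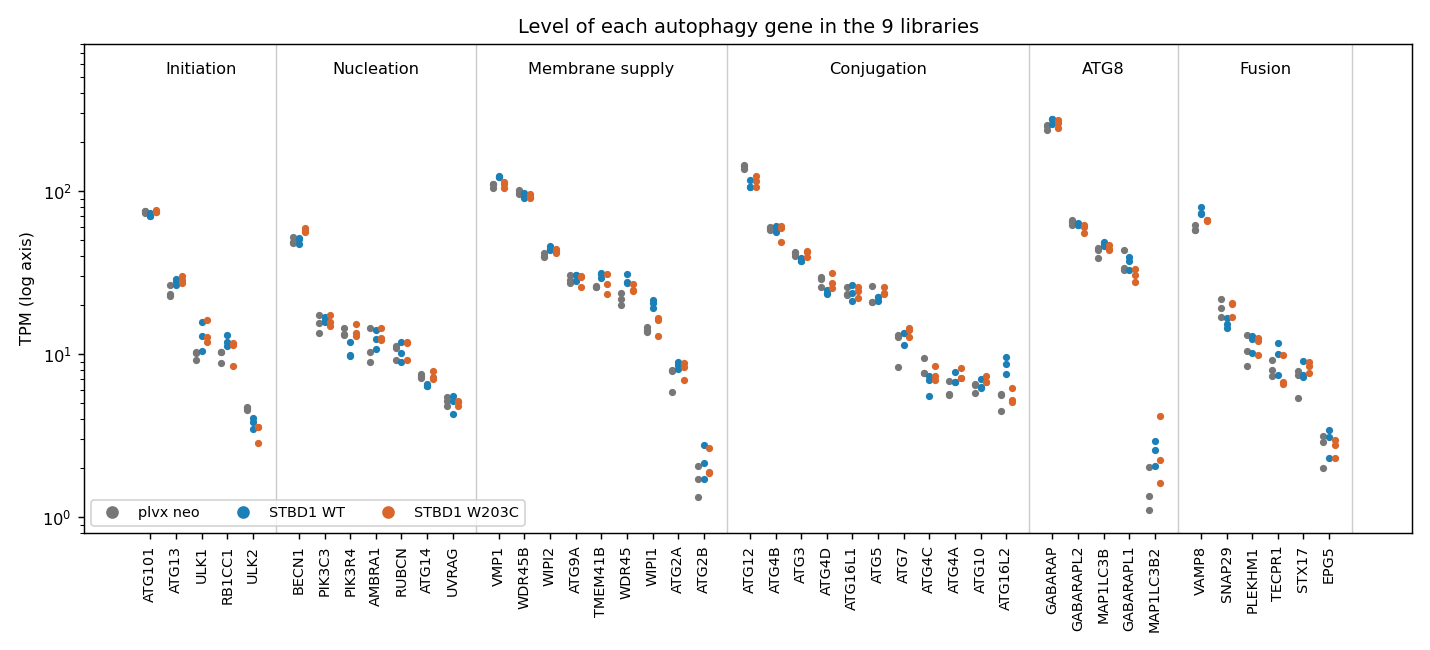
Level in TPM (log axis) of 43 autophagy genes grouped by role, with 1 point per library coloured by group (plvx neo, STBD1 WT, STBD1 W203C). GABARAP, at a mean of 259 TPM, lies above every other gene, and ATG2B and MAP1LC3B2 lie lowest, while MAP1LC3A, at 0.154 TPM, is not drawn.

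STBD1 WT was set against plvx neo to see what expressing STBD1 from a construct does to cells that carry the hairpin. The study describes this as overexpression. The 9 libraries include none without the hairpin, so whether STBD1 returned to its usual level was not tested. ATG16L2 and WIPI1 rose most in STBD1 WT, by 1.88-fold and 1.503-fold, and the other 10 that rose, among them the ATG8 genes MAP1LC3B and GABARAP and the membrane suppliers VMP1, TMEM41B and ATG2A, rose by at most 1.31-fold. ATG12, PIK3R4 and ATG14 fell. In all, 15 of the 43 members tested passed an adjusted p of 0.05 in edgeR's quasi-likelihood test with Benjamini-Hochberg adjustment over all genes, 12 higher and 3 lower. The background was 27.8% of 15289 genes tested, 13.9% higher and 13.9% lower. At an unadjusted p below 0.05 there were 21 members, against 37.8% of all genes, and the groups did not overlap for 21 members, against 40.4%. Changes were small: 8 members passed with a fold of at least 1.2, against 14% of all genes. The median log2 fold change was 0.09 over the members and 0.01 over all genes tested. Values lay above 0 for 29 of 43 members and for 7809 of 15289 genes. DESeq2 called 12 of the 15, all but ATG14, GABARAP and WDR45, against 3156 of the 27608 genes it fitted without the count filter. limma on log2(TPM + 1) called 7 of the 15, ATG16L2, WIPI1, VMP1, TMEM41B, VAMP8, WDR45 and ATG12, against 1751 of 15289 genes. The split of higher against lower calls moved with a correction for transcript length and GC content, to 11 higher and 6 lower, or 64.7% higher against 80.0%. ULK1 and WDR45 lost their calls under it, and ATG101, ATG4D, STX17 and WDR45B gained one. That correction also moved the split over all genes, from 2128 higher and 2126 lower to 1618 higher and 3325 lower.

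STBD1 W203C was set against STBD1 WT to see what the change in the LIR does at the level of RNA. All 12 members that passed were lower in STBD1 W203C, led by ATG16L2 at 0.613-fold and WIPI1 at 0.713-fold of the STBD1 WT level, and MAP1LC3B and GABARAPL1 were among them. The 12 were out of 43 tested, against a background of 27.9% of 15052 genes in either direction and 13.4% lower. The groups did not overlap for 21 members, against 41.3% of all genes. With a fold of at least 1.2 the number was 5, against 12.7% of all genes. The median log2 fold change was -0.07 over the members and -0.01 over all genes tested. Values lay above 0 for 15 of 43 members and for 7297 of 15052 genes. DESeq2 called 6 of the 43, all of them lower: ULK1, WIPI1, VMP1, ATG16L2, MAP1LC3B and GABARAPL1. Of the 27338 genes it fitted without the count filter, DESeq2 called 1689 higher and 1264 lower. The calls of ULK2, ATG13, ATG2A, TMEM41B, VAMP8 and TECPR1 were lost there. No member passed as higher in DESeq2 or in edgeR without the length and GC correction. In uncorrected edgeR 3 members had an unadjusted p below 0.05 in that direction, out of 20 in either direction, against 38.2% of all genes. limma on log2(TPM + 1) gave 1 higher (BECN1) and 3 lower (ATG16L2, WIPI1 and VMP1), and the length and GC correction gave 3 higher (AMBRA1, ATG101 and SNAP29) and 8 lower, with the calls of ULK1, ATG13, ATG2A and TECPR1 lost. Over all genes the correction gave 3276 higher and 1446 lower and limma 1257 and 571, against 2178 and 2024 in edgeR.

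STBD1 W203C and plvx neo differed at few members. STX17 was higher in STBD1 W203C, and ATG12 and WDR45B were lower. These 3 of 43 tested stand against a background of 5.7% of 15081 genes, 3.03% higher and 2.67% lower. With a fold of at least 1.2 there were 2, against 2.84% of all genes, and at an unadjusted p below 0.05 there were 10, against 19.3%, with 17 members not overlapping between the groups against 23.5% of all genes. The median log2 fold change of the members and of all genes tested was 0.00 after rounding. Values lay above 0 for 21 of 43 members and for 7382 of 15081 genes. DESeq2 called 1 of the 43, ATG12, against 596 of the 27275 genes it fitted without the count filter. The length and GC correction gave 1 higher and 1 lower, STX17 and ATG12, against 623 and 435 over all genes. limma on log2(TPM + 1) called none of the 43 (6 higher and 2 lower at an unadjusted p below 0.05) and gave 97 higher and 34 lower over all genes, against 457 and 402 in edgeR. Each pair of comparisons shares a group of libraries, so their values are given side by side and not as independent results.

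**Figure D2:**
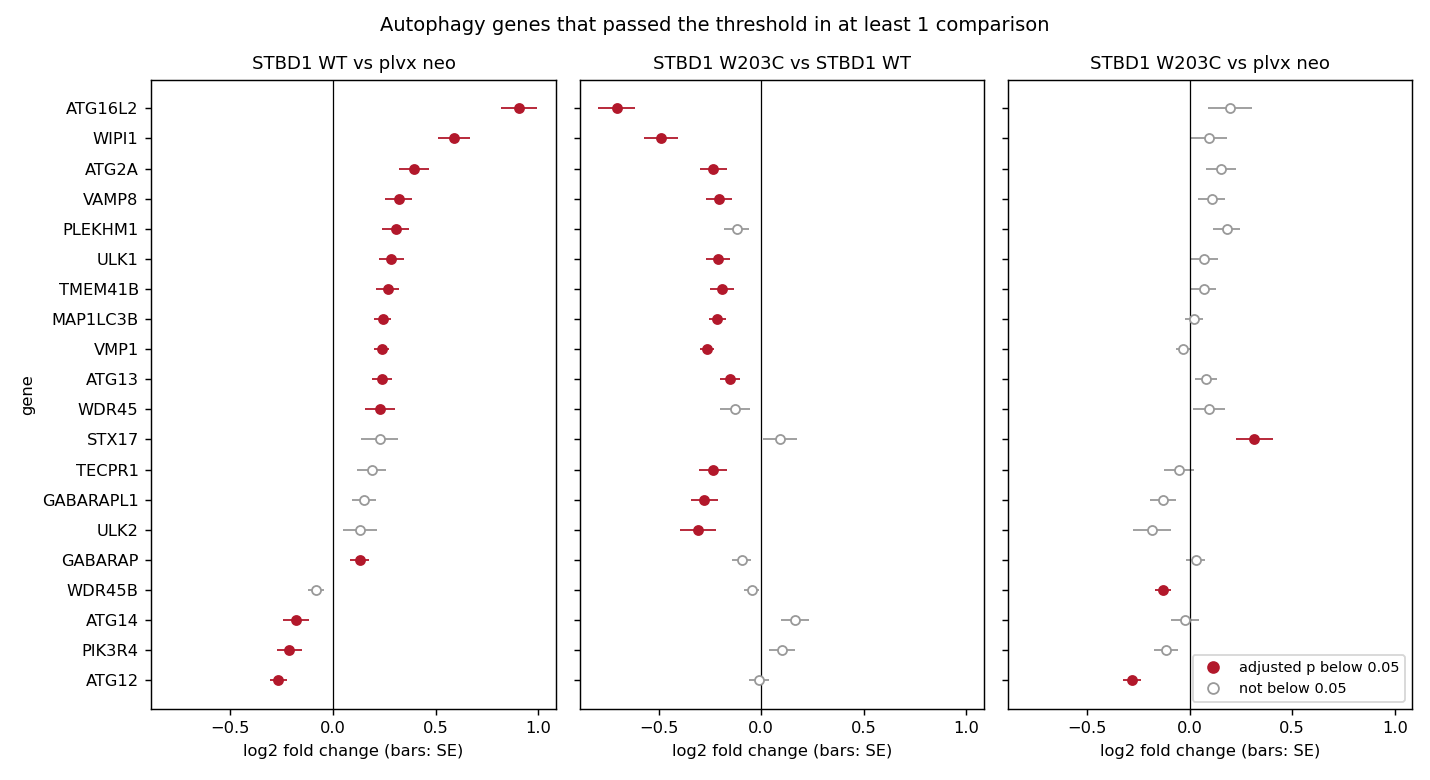
Log2 fold change with its SE for the 20 members that passed the threshold in at least 1 comparison, 1 panel per comparison, with filled points below an adjusted p of 0.05. ATG16L2 and WIPI1 lie farthest from 0 in the first panel, at 0.91 and 0.59, and in the second, at -0.71 and -0.49.

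Of the 5 initiation genes, 2 rose in STBD1 WT against plvx neo and 3 were lower in STBD1 W203C than in STBD1 WT. The shares of all genes were 13.9% and 13.4%. ULK1, the kinase that starts autophagosome formation, had 36.4, 36.7 and 42.1 CPM in the plvx neo libraries, 47.4, 46.2 and 46.4 in those of STBD1 WT and 42.8, 39.8 and 38.3 in those of STBD1 W203C. The 3 STBD1 WT libraries lay above the other 6. ULK1 rose in STBD1 WT against plvx neo (edgeR, log2 fold change 0.28, SE 0.0620, adjusted p = 0.00173) and was lower in STBD1 W203C than in STBD1 WT (edgeR, log2 fold change -0.21, SE 0.0579, adjusted p = 0.00920). ATG13, the adaptor that holds the kinase complex together, had 52.3, 50.2 and 52.2 CPM in the plvx neo libraries, 61.3, 60.8 and 59.6 in those of STBD1 WT and 53.6, 53.4 and 56.2 in those of STBD1 W203C. Here too the 3 STBD1 WT libraries were the highest. ATG13 rose against plvx neo (edgeR, log2 fold change 0.24, SE 0.0493, adjusted p = 0.00114) and was lower in STBD1 W203C (edgeR, log2 fold change -0.15, SE 0.0492, adjusted p = 0.0228), a call that held in 2 of 6 fits that each left out 1 library. ATG13 overlaps HARBI1 on the other strand, and whether counting used the strand was not stated.

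ULK2, the second kinase of the family, had 15.1, 14.2 and 14.5 CPM in the plvx neo libraries, 15.6, 15.7 and 16.6 in those of STBD1 WT and 11.98, 13.6 and 13.0 in those of STBD1 W203C. Its 3 STBD1 W203C libraries were the lowest and its 3 STBD1 WT libraries the highest. It was lower in STBD1 W203C than in STBD1 WT (edgeR, log2 fold change -0.31, SE 0.0879, adjusted p = 0.0111), a call lost without STBD1 W203C replicate 1, in DESeq2 and in limma, and it did not pass in STBD1 WT against plvx neo, with a log2 fold change of 0.13 with a 95% interval of -0.03 to 0.29 and an adjusted p of 0.249. In TPM the order differed, with 4.65, 4.71 and 4.56 in plvx neo, 3.45, 3.82 and 4.05 in STBD1 WT libraries and 3.57, 3.56 and 2.86 in STBD1 W203C. The plvx neo libraries, intermediate in CPM, were thus the highest in TPM. The mean transcript length that RSEM assigned to ULK2 was 3442 to 3644 bases in plvx neo, 4508 to 4959 in STBD1 WT libraries and 3851 to 5070 in STBD1 W203C. For ULK1 that length was 3867 to 4591 bases in plvx neo, 3383 to 4916 in STBD1 WT libraries and 2766 to 3888 in STBD1 W203C. ULK1 and ATG13 changed sign in STBD1 W203C against STBD1 WT when log2(TPM + 1) was tested with limma, to 0.06 and 0.04, so their direction there rests on the scale. With the length and GC correction ULK1 passed neither comparison, at log2 fold changes of 0.11 and -0.07, and ATG13 did not pass in STBD1 W203C against STBD1 WT, at -0.11. RB1CC1, the scaffold also called FIP200, and ATG101, which stabilises ATG13, passed in no comparison without that correction. With it ATG101 passed in STBD1 WT against plvx neo and in STBD1 W203C against STBD1 WT. RB1CC1 ranged from 38.5 to 48.3 CPM and ATG101 from 71.4 to 80.4 CPM over the 9 libraries.

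**Figure D3:**
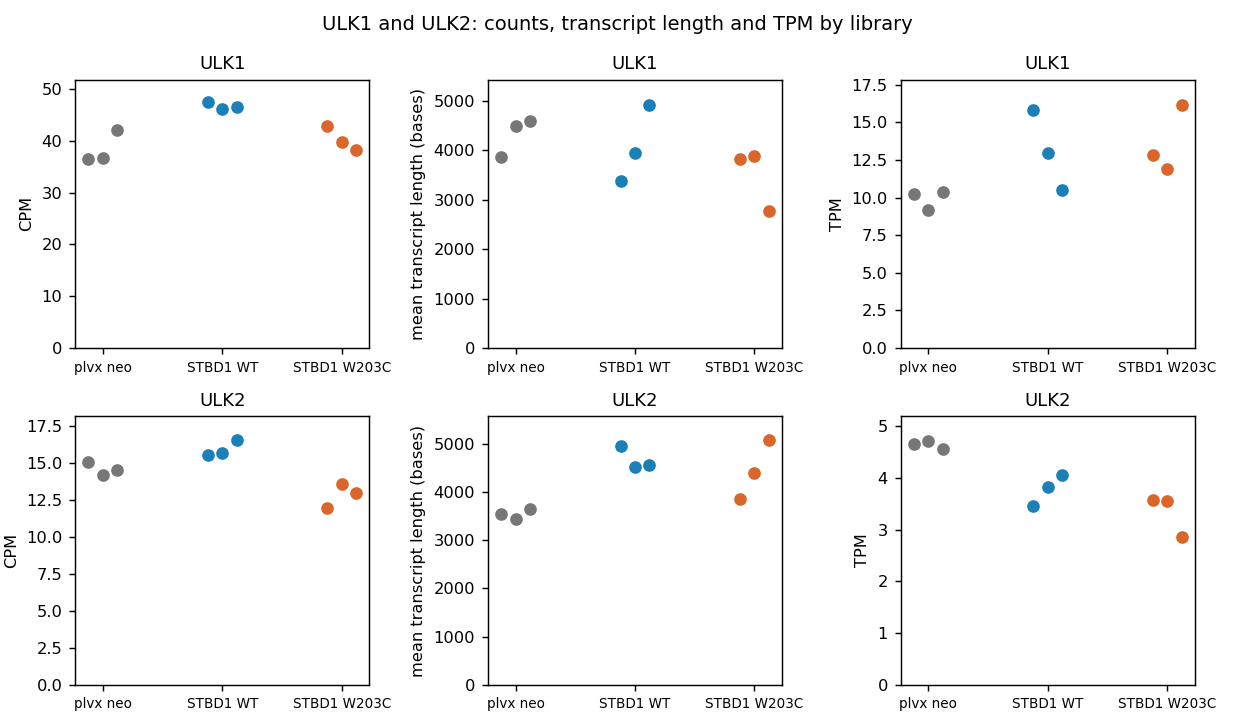
ULK1 (top) and ULK2 (bottom) in the 9 libraries as normalised CPM, mean transcript length in bases assigned by RSEM and TPM, with points coloured by group. ULK2 is lowest in STBD1 W203C in CPM, while its length is shortest and its TPM highest in plvx neo.

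Of the 7 nucleation genes, 2 fell in STBD1 WT against plvx neo, beside 13.9% of all genes. None passed in either other comparison in edgeR without the length and GC correction, beside 27.9% and 5.7% of all genes. In each of these, 2 had an unadjusted p below 0.05, beside 38.2% and 19.3%. DESeq2 called none of the nucleation genes there either. PIK3R4, the VPS15 subunit that holds the lipid kinase, had 41.9, 45.5 and 43.3 CPM in the plvx neo libraries, 35.4, 37.9 and 39.2 in those of STBD1 WT and 38.8, 41.7 and 40.2 in those of STBD1 W203C. The 3 STBD1 WT libraries lay under the 3 plvx neo libraries (edgeR, log2 fold change -0.21, SE 0.0604, adjusted p = 0.0124), a call lost without plvx neo replicate 2 or STBD1 WT replicate 1. ATG14, the subunit that directs the kinase to autophagosome formation, had 31.6, 30.8 and 31.7 CPM in the plvx neo libraries, 27.4, 27.4 and 28.0 in those of STBD1 WT and 33.2, 29.9 and 29.6 in those of STBD1 W203C. The STBD1 WT libraries were the lowest 3 of the 9, and ATG14 fell in STBD1 WT (edgeR, log2 fold change -0.18, SE 0.0624, adjusted p = 0.0354), a call that held in 1 of 6 fits that each left out 1 library. PIK3C3, the catalytic subunit VPS34, and BECN1, its regulatory partner Beclin 1, did not pass. BECN1 had a log2 fold change of 0.08 with a 95% interval of -0.01 to 0.18 and an adjusted p of 0.214 in STBD1 WT against plvx neo, and PIK3C3 had 0.11 with a 95% interval of -0.02 to 0.25 and an adjusted p of 0.248. UVRAG replaces ATG14 in an endosomal form of the complex, RUBCN inhibits that form and AMBRA1 is a scaffold of BECN1. None of them passed in edgeR without the length and GC correction, with log2 fold changes of 0.04, 0.01 and -0.01 in STBD1 WT against plvx neo. AMBRA1 had 36.5, 37.9 and 35.7 CPM in the STBD1 WT libraries and 39.4, 44.05 and 39.2 in those of STBD1 W203C. Between these groups the length and GC correction called AMBRA1 higher in STBD1 W203C, and limma on log2(TPM + 1) called BECN1 higher.

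Of the 9 membrane supply genes, 5 rose in STBD1 WT against plvx neo and 4 were lower in STBD1 W203C than in STBD1 WT, beside 13.9% and 13.4% of all genes. WIPI1, which binds phosphatidylinositol 3-phosphate at the forming membrane, had 17.9, 16.0 and 17.0 CPM in the plvx neo libraries, 24.6, 27.6 and 23.9 in those of STBD1 WT and 19.7, 18.5 and 16.2 in those of STBD1 W203C. Each STBD1 WT library lay above all 6 others. WIPI1 rose against plvx neo (edgeR, log2 fold change 0.59, SE 0.0784, adjusted p = 1.24e-05) and was lower in STBD1 W203C than in STBD1 WT (edgeR, log2 fold change -0.49, SE 0.0830, adjusted p = 0.000151). STBD1 W203C and plvx neo differed by 0.10 with a 95% interval of -0.08 to 0.27 and an adjusted p of 0.617 in edgeR. WIPI1 (ENSG00000070540) lies on the minus strand of chromosome 17 from 68420948 to 68457513 (hg38), and it overlaps ARSG on the other strand. Both calls held in every alternative listed in the closing section.

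VMP1, a scramblase of the endoplasmic reticulum, had 228, 229 and 223 CPM in the plvx neo libraries, 268, 270.2 and 261 in those of STBD1 WT and 222, 221 and 222 in those of STBD1 W203C. The STBD1 WT libraries were apart from the other 6, which lay within 221 to 229 CPM. VMP1 rose (edgeR, log2 fold change 0.24, SE 0.0356, adjusted p = 4.7e-05) and was lower in STBD1 W203C (edgeR, log2 fold change -0.27, SE 0.0353, adjusted p = 9.76e-06), and STBD1 W203C differed from plvx neo by -0.03 with a 95% interval of -0.10 to 0.04 and an adjusted p of 0.689 in edgeR. VMP1 (ENSG00000062716, chromosome 17, 59707192 to 59842255, plus strand) overlaps PTRH2 on the other strand and is the host of a microRNA. TMEM41B, a scramblase that acts with VMP1, had 42.6, 45.1 and 42.4 CPM in the plvx neo libraries, 52.0, 50.5 and 53.9 in those of STBD1 WT and 43.5, 49.4 and 43.8 in those of STBD1 W203C. The STBD1 WT libraries were the 3 highest, and STBD1 W203C replicate 2 came nearest to them. TMEM41B rose in STBD1 WT (edgeR, log2 fold change 0.27, SE 0.0545, adjusted p = 0.00102) and was lower in STBD1 W203C (edgeR, log2 fold change -0.19, SE 0.0583, adjusted p = 0.0168), the second of these in 3 of 6 fits without 1 library and in neither DESeq2 nor limma.

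ATG2A had 30.0, 25.4 and 25.9 CPM in the plvx neo libraries, 37.7, 33.1 and 36.1 in those of STBD1 WT and 30.6, 29.4 and 30.6 in those of STBD1 W203C. Its STBD1 WT libraries were the highest, with no overlap with plvx neo or STBD1 W203C. ATG2A rose (edgeR, log2 fold change 0.39, SE 0.0740, adjusted p = 0.000472) and was lower in STBD1 W203C than in STBD1 WT (edgeR, log2 fold change -0.23, SE 0.0665, adjusted p = 0.0109), a call lost without STBD1 WT replicate 1, in DESeq2, in limma, at -0.09, and with the length and GC correction, at -0.10. WDR45, a WIPI protein, had 21.0, 24.3 and 21.7 CPM in the plvx neo libraries, 25.2, 26.9 and 26.2 in those of STBD1 WT and 24.0, 22.2 and 25.4 in those of STBD1 W203C, and rose in STBD1 WT (edgeR, log2 fold change 0.23, SE 0.0732, adjusted p = 0.0234) in the full fit and in 2 of 6 fits that each left out 1 library. WDR45B, its paralogue, had 212, 198 and 211 CPM in the plvx neo libraries, 199, 194 and 192 in those of STBD1 WT and 191, 186 and 190.0 in those of STBD1 W203C. The STBD1 W203C libraries all lay under the plvx neo ones, and WDR45B was lower in STBD1 W203C than in plvx neo (edgeR, log2 fold change -0.13, SE 0.0390, adjusted p = 0.0470), a call kept in 1 of 6 fits without 1 library. ATG9A, the scramblase of the seed vesicles, WIPI2, which recruits ATG16L1, and ATG2B passed in no comparison, and ATG9A ranged from 72.6 to 84.4 CPM.

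ATG16L2 and ATG12 carried the calls among the 11 conjugation genes. These numbered 2, 1 and 1 in the 3 comparisons in turn, against 27.8%, 27.9% and 5.7% of all genes. ATG16L2, a paralogue of the conjugation scaffold ATG16L1, had 10.1, 9.40 and 10.4 CPM in the plvx neo libraries, 19.96, 18.3 and 17.9 in those of STBD1 WT and 11.3, 12.5 and 10.6 in those of STBD1 W203C. The 3 STBD1 WT libraries were apart from the other 6, which did not exceed 12.5 CPM. ATG16L2 rose (edgeR, log2 fold change 0.91, SE 0.0883, adjusted p = 2.09e-07), was lower in STBD1 W203C than in STBD1 WT (edgeR, log2 fold change -0.71, SE 0.0904, adjusted p = 6.49e-06), and differed between STBD1 W203C and plvx neo by 0.20 with a 95% interval of -0.01 to 0.41 and an adjusted p of 0.322 in edgeR. ATG16L2 (ENSG00000168010, chromosome 11, 72814406 to 72843674, plus strand) overlaps FCHSD2 on the other strand. ATG16L1 itself had 45.6, 49.9 and 48.5 CPM in the plvx neo libraries, 45.0, 41.2 and 47.2 in those of STBD1 WT and 46.4, 44.9 and 44.8 in those of STBD1 W203C. Its plvx neo and STBD1 WT libraries overlapped, and its log2 fold change in STBD1 WT against plvx neo was -0.11 with a 95% interval of -0.23 to 0.01 and an adjusted p of 0.187 in edgeR.

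ATG12 had 181, 182 and 177 CPM in the plvx neo libraries, 141, 150.2 and 156 in those of STBD1 WT and 148, 158 and 138 in those of STBD1 W203C. All 6 libraries of the 2 constructs lay under the 3 plvx neo libraries. It fell in STBD1 WT (edgeR, log2 fold change -0.27, SE 0.0412, adjusted p = 6.65e-05) and in STBD1 W203C against plvx neo (edgeR, log2 fold change -0.28, SE 0.0437, adjusted p = 0.000172), and the 2 constructs differed by -0.01 with a 95% interval of -0.10 to 0.08 and an adjusted p of 0.889 in edgeR. ATG12 overlaps AP3S1 on the other strand. KRT8 and KRT18, of the epithelial markers, also fell in both constructs, with log2 fold changes of -0.43 and -0.44 in STBD1 WT and -0.41 and -0.44 in STBD1 W203C against plvx neo, and a part of this in the ATG12 result was not tested. ATG5, the partner of ATG12, ranged from 41.1 to 46.6 CPM with no call. ATG7, the activating enzyme of both conjugation systems, ATG3 and ATG10, the conjugating enzymes, and ATG4A, ATG4B, ATG4C and ATG4D, the proteases that process ATG8 proteins, passed in no comparison either. The length and GC correction called ATG4D in STBD1 WT against plvx neo. ATG4B, the most abundant of the 4 proteases at 58.2 TPM, had log2 fold changes of 0.02, -0.04 and -0.02 in the 3 comparisons in turn.

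Among the ATG8 genes MAP1LC3B, which encodes LC3B, had 86.3, 89.0 and 91.5 CPM in the plvx neo libraries, 103, 106 and 105 in those of STBD1 WT and 89.0, 92.1 and 90.2 in those of STBD1 W203C. The STBD1 WT libraries lay above the other 6. MAP1LC3B rose (edgeR, log2 fold change 0.24, SE 0.0425, adjusted p = 0.000251) and was lower in STBD1 W203C than in STBD1 WT (edgeR, log2 fold change -0.21, SE 0.0410, adjusted p = 0.00048), with 0.02 with a 95% interval of -0.06 to 0.11 and an adjusted p of 0.848 between STBD1 W203C and plvx neo. MAP1LC3B (ENSG00000140941, chromosome 16, 87383953 to 87404779, plus strand) overlaps FBXO31 on the other strand, and its near-identical copy MAP1LC3B2 could share reads with it. Adding the counts of both gave log2 fold changes of 0.25, -0.21 and 0.03 in the 3 comparisons, with the same calls. Both calls of MAP1LC3B were lost in limma on log2(TPM + 1). MAP1LC3B2 alone had 9 to 31 expected counts per library and a log2 fold change of 0.70 with a 95% interval of -0.03 to 1.44 and an adjusted p of 0.181 in STBD1 WT against plvx neo, and of 0.10 with a 95% interval of -0.63 to 0.83 and an adjusted p of 0.875 in STBD1 W203C against STBD1 WT.

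GABARAP, the most abundant of the family, had 104, 97.0 and 102 CPM in the plvx neo libraries, 109, 115 and 106 in those of STBD1 WT and 106, 98.2 and 105 in those of STBD1 W203C. The STBD1 WT libraries lay above the plvx neo ones by a narrow margin. GABARAP rose in STBD1 WT (edgeR, log2 fold change 0.13, SE 0.0451, adjusted p = 0.0366), in 2 of 6 fits that each left out 1 library and not in DESeq2, and differed by -0.10 with a 95% interval of -0.18 to -0.01 and an adjusted p of 0.119 in STBD1 W203C against STBD1 WT. GABARAPL1, an ATG8 protein known to bind STBD1, had 40.5, 40.6 and 39.2 CPM in the plvx neo libraries, 42.4, 47.6 and 43.0 in those of STBD1 WT and 37.5, 38.6 and 33.9 in those of STBD1 W203C. In CPM the groups did not overlap, with STBD1 WT highest and STBD1 W203C lowest. In TPM they overlapped, with 32.7, 33.66 and 43.59 in plvx neo, 39.64, 32.91 and 37.5 in STBD1 WT libraries and 27.54, 33.48 and 30.54 in STBD1 W203C. GABARAPL1 was lower in STBD1 W203C than in STBD1 WT (edgeR, log2 fold change -0.28, SE 0.0649, adjusted p = 0.00267), a call lost in limma. STBD1 WT and plvx neo differed by 0.15 with a 95% interval of 0.03 to 0.27 and an adjusted p of 0.0660 in edgeR. GABARAPL2, also called GATE-16, had 46.4, 46.5 and 48.2 CPM in the plvx neo libraries, 46.7, 45.5 and 43.7 in those of STBD1 WT and 39.2, 42.3 and 43.9 in those of STBD1 W203C. No comparison passed for it, and STBD1 W203C differed from plvx neo by -0.17 with a 95% interval of -0.29 to -0.06 and an adjusted p of 0.0912. On the TPM scale the 6 ATG8 genes summed to 392 ± 16.9 (SD, n = 3) in plvx neo, 421 ± 10.0 in STBD1 WT libraries and 397 ± 8.64 in STBD1 W203C. GABARAP made up 63.0%, 64.5% and 65.4% of that sum in the same order.

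**Figure D4:**
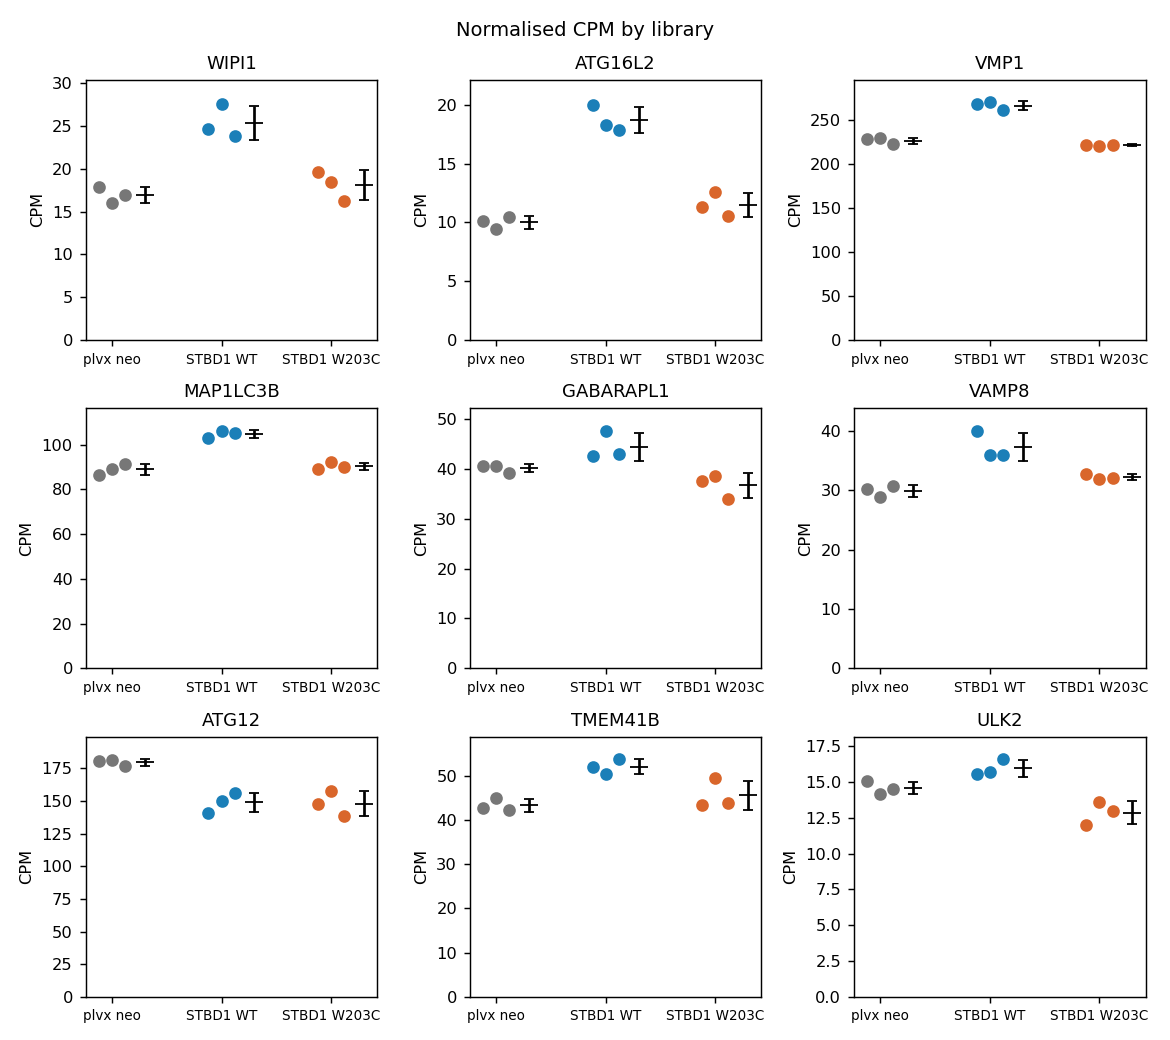
Normalised CPM of 9 autophagy genes, with 1 point per library for plvx neo, STBD1 WT and STBD1 W203C and a bar for the mean and SD of each group. In WIPI1, ATG16L2, VMP1 and MAP1LC3B the 3 STBD1 WT points lie above the other 6, and in ATG12 the 3 plvx neo points do.

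Of the 6 fusion genes, 2 rose in STBD1 WT, 2 were lower in STBD1 W203C than in STBD1 WT, and 1 was higher in STBD1 W203C than in plvx neo. The shares of all genes were 13.9%, 13.4% and 3.03% in turn. VAMP8, the SNARE of the lysosome, had 30.2, 28.8 and 30.7 CPM in the plvx neo libraries, 40.0, 36.0 and 36.0 in those of STBD1 WT and 32.8, 31.9 and 32.1 in those of STBD1 W203C. The STBD1 WT libraries lay above the other 6, and the STBD1 W203C libraries lay above plvx neo. VAMP8 rose in STBD1 WT (edgeR, log2 fold change 0.32, SE 0.0651, adjusted p = 0.000955) and was lower in STBD1 W203C (edgeR, log2 fold change -0.21, SE 0.0641, adjusted p = 0.0189), the latter lost without STBD1 WT replicate 1 or STBD1 W203C replicate 2, in DESeq2 and in limma. PLEKHM1, an adaptor that ties lysosomes to ATG8 proteins, had 30.9, 32.9 and 28.8 CPM in the plvx neo libraries, 38.9, 36.5 and 39.1 in those of STBD1 WT and 35.8, 35.4 and 33.9 in those of STBD1 W203C, with no overlap between any groups. PLEKHM1 rose in STBD1 WT (edgeR, log2 fold change 0.31, SE 0.0656, adjusted p = 0.00152), a call lost in limma. In TPM these groups overlapped, with 10.48, 13.15 and 8.49 in plvx neo and 12.46, 10.14 and 12.96 in STBD1 WT libraries. STBD1 W203C differed from STBD1 WT by -0.12 with a 95% interval of -0.24 to -0.00 and an adjusted p of 0.151 in edgeR.

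TECPR1, a tethering protein of the lysosome, had 24.3, 23.5 and 26.9 CPM in the plvx neo libraries, 30.1, 27.4 and 27.5 in those of STBD1 WT and 24.2, 23.5 and 24.3 in those of STBD1 W203C. It was lower in STBD1 W203C than in STBD1 WT (edgeR, log2 fold change -0.24, SE 0.0697, adjusted p = 0.0142), with no overlap between these groups, and the call was lost without STBD1 WT replicate 1 or STBD1 W203C replicate 2, in DESeq2, in limma and with the length and GC correction, at -0.11. STX17, the SNARE of the autophagosome, had 12.3, 14.7 and 13.6 CPM in the plvx neo libraries, 17.0, 15.8 and 14.7 in those of STBD1 WT and 16.3, 17.1 and 17.3 in those of STBD1 W203C. The STBD1 W203C libraries all lay above the plvx neo ones, and STX17 was higher in STBD1 W203C (edgeR, log2 fold change 0.31, SE 0.0894, adjusted p = 0.0368), a call held in 1 of 6 fits without 1 library. SNAP29, the SNARE that pairs with both, and EPG5, a tether, passed in no comparison, and SNAP29 ranged from 36.2 to 43.1 CPM. The length and GC correction called SNAP29 in STBD1 W203C against STBD1 WT. In bulk RNA, a lower share of cells with a transcript and less of it per cell cannot be told apart, for these genes and all others.

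**Figure D5:**
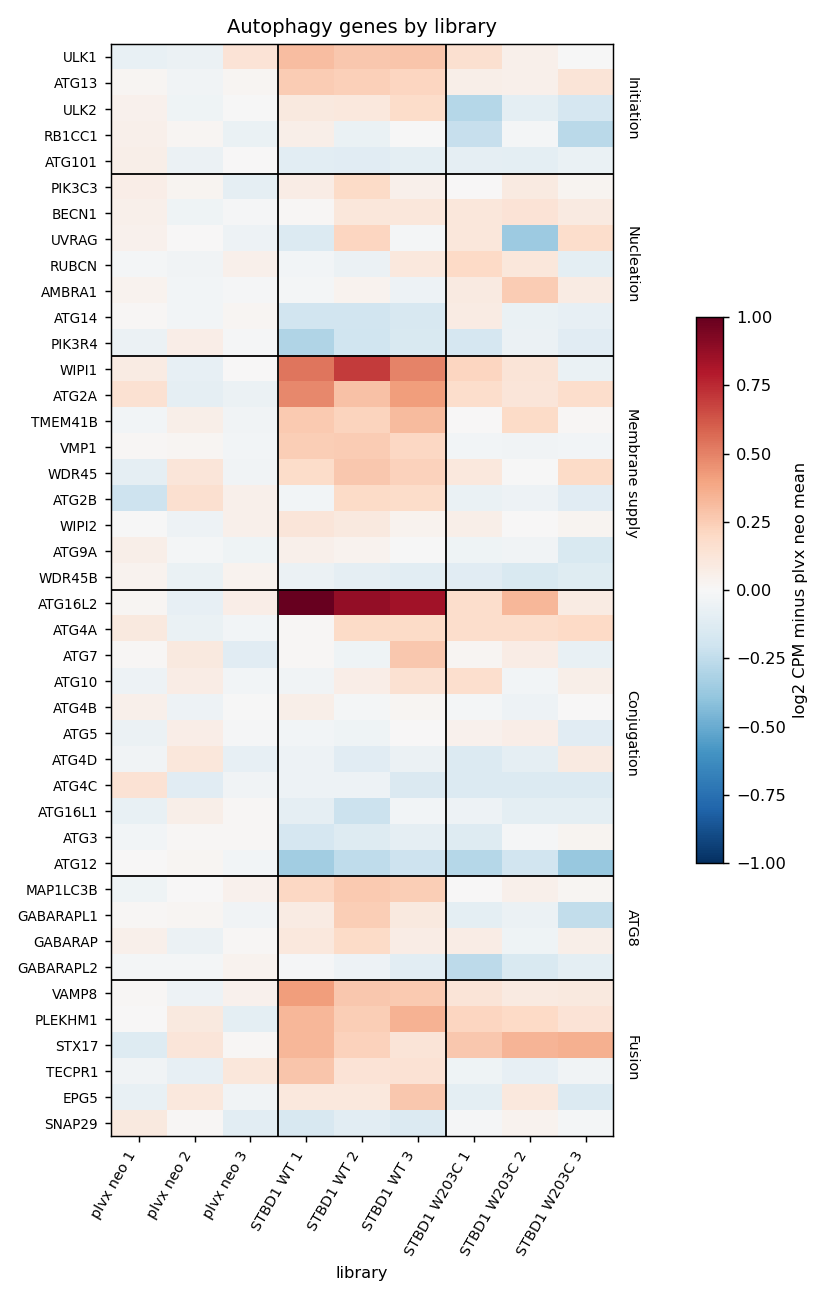
Log2 CPM of 42 members in each of the 9 libraries, as the difference from the mean of the plvx neo libraries (colour scale symmetric about 0 and set by the largest difference), in blocks by role. ATG16L2 and WIPI1 are the reddest rows in the 3 STBD1 WT columns, ATG12 is blue in all 6 construct columns, and MAP1LC3A and MAP1LC3B2, of low counts, are not drawn.

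Promoter sequence was read for 37 of the 44 members from a RefSeq table on GRCh38.p14 that gives 250 bases before to 50 after each gene start. RB1CC1, UVRAG, WDR45B, ATG4D, MAP1LC3A, STX17 and EPG5 had no entry. WIPI1 and ATG16L2 are shown because they had the largest changes of the members that passed. Other members, among them VMP1 and MAP1LC3B, changed in the same directions, and a link between promoter letters and these changes was not tested. GABARAPL1 is shown because it holds a site of the stress-regulated CREB and ATF kind. ATG14, ATG3 and SNAP29 are shown because they hold the E-box that the lysosomal regulator TFEB also reads. Sequences run 5′ to 3′ in the direction of the gene, and capitals mark the motif found on either strand: GGGCGG (GC box) and CCAAT in WIPI1, GGGCGG in ATG16L2, TGACGTCA (CRE) in GABARAPL1 and CACGTG (E-box) in the last 3.
WIPI1: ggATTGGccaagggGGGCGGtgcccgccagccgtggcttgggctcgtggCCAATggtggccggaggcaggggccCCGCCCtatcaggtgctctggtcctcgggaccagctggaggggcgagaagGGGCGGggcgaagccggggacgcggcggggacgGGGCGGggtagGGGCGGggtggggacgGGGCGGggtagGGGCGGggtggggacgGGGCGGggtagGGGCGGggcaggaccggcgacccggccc
ATG16L2: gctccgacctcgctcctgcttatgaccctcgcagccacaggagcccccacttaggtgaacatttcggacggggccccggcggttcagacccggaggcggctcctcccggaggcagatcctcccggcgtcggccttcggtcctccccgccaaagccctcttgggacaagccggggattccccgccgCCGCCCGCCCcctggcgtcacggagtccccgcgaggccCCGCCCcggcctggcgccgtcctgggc
GABARAPL1: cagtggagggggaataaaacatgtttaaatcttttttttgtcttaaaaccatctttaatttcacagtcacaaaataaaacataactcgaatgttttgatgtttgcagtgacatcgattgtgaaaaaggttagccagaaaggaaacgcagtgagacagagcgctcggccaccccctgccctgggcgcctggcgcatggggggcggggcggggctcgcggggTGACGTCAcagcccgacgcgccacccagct
ATG14: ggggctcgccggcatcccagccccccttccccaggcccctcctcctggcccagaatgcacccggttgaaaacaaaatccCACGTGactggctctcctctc
ATG3: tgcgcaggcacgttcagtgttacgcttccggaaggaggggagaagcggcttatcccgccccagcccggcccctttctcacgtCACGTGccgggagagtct
SNAP29: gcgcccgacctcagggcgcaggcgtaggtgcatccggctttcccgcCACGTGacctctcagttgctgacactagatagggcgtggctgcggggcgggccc
The positions are chr17:68457497-68457746 on the minus strand for WIPI1, chr11:72814161-72814410 on the plus strand for ATG16L2, chr12:10212627-10212876 on the plus strand for GABARAPL1, chr14:55411831-55411930 on the minus strand for ATG14, chr3:112561963-112562062 on the minus strand for ATG3 and chr22:20858777-20858876 on the plus strand for SNAP29. The WIPI1 window holds 11 matches and the ATG16L2 window 3. Of the 250 bases before the start, 79.6% are G or C in WIPI1, 74.0% in ATG16L2 and 51.6% in GABARAPL1, against a median of 62.8% over the 37 members and 58.0% over all 27305 promoters in the table.

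Over the full 300-base windows the GC box was held by 25 of 37 members, against 44.6% of all promoters, and CCAAT by 14 of 37, against 35.7%. TATAAA was held by 2 members, AMBRA1 and ATG5, against 11.95% of all promoters. The E-box was held by 3 of 37 members, against 7.43%, and its longer form TCACGTGA, which contains it and is the core of the CLEAR element of lysosomal genes, by ATG3, against 1.04%. In ATG3 the longer form begins at position 4 relative to the gene start, outside the sequence printed above. The E-box marked in that sequence is a separate match at position -18 and lacks the longer form. The CRE was held by GABARAPL1, against 1.98%. TGATGNAA, the composite of C/EBP and ATF4, and the 10-letter NF-kB site were held by no member, against 3.67% and 1.92% of all promoters. A match is a description of these letters and not a site in use.

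Another 40 genes of the pathway, 23 upstream regulators and 17 further parts of the machinery, were listed, and 39 were tested. In STBD1 WT against plvx neo 9 of the 39 passed, 6 higher and 3 lower, against the 27.8% of all genes given above. TFE3, a transcription factor of lysosomal genes, had 22.5, 21.6 and 23.5 CPM in the plvx neo libraries, 29.0, 32.6 and 28.8 in those of STBD1 WT and 26.0, 23.6 and 23.7 in those of STBD1 W203C, with STBD1 WT highest (edgeR, log2 fold change 0.43, SE 0.0718, adjusted p = 0.000145). DEPTOR, an inhibitor of the mTOR kinase, also rose (edgeR, log2 fold change 0.43, SE 0.139, adjusted p = 0.0260), in 3 of 6 fits without 1 library and not in DESeq2. RPTOR, the mTORC1 scaffold that binds substrates, had 118, 112 and 116 CPM in the plvx neo libraries, 97.2, 98.8 and 102 in those of STBD1 WT and 121, 121 and 120.2 in those of STBD1 W203C. Its STBD1 WT libraries were the lowest 3 (edgeR, log2 fold change -0.21, SE 0.0414, adjusted p = 0.000626), and PRKAB1, a subunit of the energy sensor AMPK, was lower (edgeR, log2 fold change -0.22, SE 0.0714, adjusted p = 0.0251), with the opposite sign in limma on log2(TPM + 1), at 0.04, and its edgeR call held in 3 of 6 fits without 1 library and not in DESeq2.

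In STBD1 W203C against STBD1 WT, 13 of the 39 passed, 7 higher and 6 lower, against 27.9% of all genes, 14.5% higher and 13.4% lower. RPTOR (edgeR, log2 fold change 0.29, SE 0.0398, adjusted p = 1.53e-05) and VPS33A, part of the HOPS tether (edgeR, log2 fold change 0.23, SE 0.0703, adjusted p = 0.0159), were higher, and the VPS33A call was lost without STBD1 WT replicate 2 or STBD1 W203C replicate 1, in DESeq2 and in limma. ATG9B, the second ATG9, was lower (edgeR, log2 fold change -1.16, SE 0.266, adjusted p = 0.00229) at 1.00 to 3.84 CPM over the 9 libraries, as was DEPTOR (edgeR, log2 fold change -0.73, SE 0.158, adjusted p = 0.00142). In STBD1 W203C against plvx neo 1 of 39 passed, against 5.7% of all genes. It was AKT1S1, an inhibitory subunit of mTORC1 (edgeR, log2 fold change 0.30, SE 0.0506, adjusted p = 0.000506). Of the 6 epithelial markers tested, 2 rose and 3 fell in STBD1 WT against plvx neo, beside 13.9% and 13.9% of all genes. In STBD1 W203C against STBD1 WT, 1 was higher and 2 were lower, beside 14.5% and 13.4%. COL1A1, the fibroblast marker above 1 TPM, rose in STBD1 WT by 0.48 log2 and had a log2 fold change of -0.49 in STBD1 W203C against STBD1 WT, as WIPI1 and ATG16L2 did, and the part of these markers in the results was not tested.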

How the data were processed

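RNA-seq reads of the 9 libraries were aligned by the authors to hg38 with STAR 2.7.1a and quantified with RSEM 1.3.1, per the labels and the methods. The deposited tables give, for each gene, the expected count from RSEM, which is not normalised. The deposited TPM had been scaled by the authors for transcript length and depth. The deposited mean transcript length per gene was used only as a description. Library kits and counting were not stated to use strand, so overlapping genes have uncertain levels. Symbols matched 57754 of 58395 genes.

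Expected counts were rounded. Each comparison was fitted on its own 6 libraries over all genes passing filterByExpr, with TMM scaling and the two-sided quasi-likelihood F-test of edgeR 4.0.16 in R 4.3.3, Benjamini-Hochberg adjustment and a threshold of 0.05. The SE was the absolute log2 fold change over the square root of F, and 95% intervals are normal. CPM per library used TMM factors over all 9 libraries. DESeq2 1.42.0, the tool family of the study, limma 3.58.1 on log2(TPM + 1) and other settings were alternatives. The fits were also run on simulated counts with known folds and no shift in transcript length or GC content between libraries. That run cannot judge calls that depend on such shifts.

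The members, the marker and pathway lists and the tests were chosen with earlier results of these data known. Every member was accounted for. Named with values were the 6 ATG8 genes, up to 15 members passing in each comparison and, of 40 further pathway genes, up to 2 passing per direction with the largest change. The other values given for members were added after they were seen.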

Additional observations from a re-analysis of the deposited data

How the results depend on the processing

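Both calls of WIPI1 and of ATG16L2, and those of TMEM41B, ATG12 and VAMP8 in STBD1 WT against plvx neo, held in every alternative run, and that of VMP1 in all but the fold of at least 1.2. Leaving out each library in turn gave 12 to 15, 9 to 11 and 1 to 3 members called in STBD1 WT against plvx neo, STBD1 W203C against STBD1 WT and STBD1 W203C against plvx neo. It gave member medians of 0.0713 to 0.1146, -0.0858 to -0.0565 and -0.0085 to 0.0161 (log2), and 459 to 818 genes called in the last comparison. The single member called in 4 of its 6 such fits, without plvx neo replicate 1 or 3 or STBD1 W203C replicate 1 or 3, was ATG12. DESeq2 called 6 members, with a median of -0.0603, in the second comparison and 1 in the third. limma on log2(TPM + 1) called 7, 4 and 0 members and 1751, 1828 and 131 genes, with member medians of 0.1038, -0.0234 and 0.0511. The medians over all genes were 0.0018, 0.0287 and 0.0338 on that scale. With a pseudocount of 0.1 limma called 7, 3 and 0 members and 1749, 1807 and 115 genes, with member medians of 0.1375, -0.0237 and 0.0593. Over all genes the medians were then 0.0027, 0.034 and 0.0394. A fold of at least 1.2 left 8 and 5 members in the first 2 comparisons and 2136, 1919 and 429 genes in the 3. The length and GC correction gave medians of 0.0632, -0.0374 and 0.0113, and the all-gene median moved by at most 0.0443. The cause of these moves was not tested.

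Signs were followed only for members called in a comparison, the ATG8 genes and called pathway genes, and turned in 11 cases. With both pseudocounts limma gave 0.0365 and 0.0372 for PRKAB1 in STBD1 WT against plvx neo, and 0.06 and 0.0646 for ULK1 and 0.0399 and 0.0411 for ATG13 in STBD1 W203C against STBD1 WT. AKT1S1 in STBD1 WT against plvx neo was -0.0195 with the length and GC correction and -0.0173 with the replicate block added. MAP1LC3B2, at 9 to 31 counts, was -0.0163 without STBD1 WT replicate 3, -0.3749 without STBD1 W203C replicate 1 (and 0.3482 without STBD1 W203C replicate 3) and -0.004 in limma with the pseudocount of 0.1, all in STBD1 W203C against STBD1 WT.

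Replicate numbers are shared between groups, but deviations of same-numbered libraries had a mean correlation of 0.02, -0.01 and 0.01, so the numbers were not taken to pair libraries. A replicate block gave 15, 12 and 3 members called, the same genes as without it, and with the length and GC correction member medians of 0.0622, -0.0377 and 0.0125.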
